A study of Mus musculus with 6 samples.

Results

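The 10 genes examined here encode the soluble factors that run protein synthesis on the mitochondrial ribosome. They were taken by symbol from the deposited table of the embryonic hearts (Mtif2, Mtif3, Tufm, Tsfm, Gfm1, Gfm2, Mtrf1, Mtrf1l, Mrrf and Mtfmt), all 10 were found among its 26191 genes, and all 10 passed the filter on low values that left 13260 genes to test. The comparison asks whether the mRNAs of these partners of the ribosome differ when a protein of its small subunit, MRPS5, is deleted.

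Mitochondria translate the few mRNAs of their own genome with a dedicated ribosome and with nuclear-encoded factors of bacterial type. Initiation uses a formylated methionyl-tRNA, made by MTFMT, together with the initiation factors MTIF2 and MTIF3. Elongation runs on EF-Tu (TUFM), its nucleotide exchange factor EF-Ts (TSFM) and the translocase EF-G1 (GFM1), release factors end the chain, and MRRF with EF-G2 (GFM2) splits the ribosome for reuse. The heart depends on this system because its respiratory chain needs the subunits made there.

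Hearts at embryonic day 12 were sequenced from 3 control replicates (genotype Mrps5 fl/fl, Ctrl) and 3 replicates of labelled mutants (Mrps5 fl/fl; cTNT-Cre, cKO). Both groups carry the floxed Mrps5 alleles, and only the cKO group carries the Cre transgene, which the troponin T2 promoter drives in cardiomyocytes. Controls were littermates without Cre, so an effect of Cre itself and the loss of Mrps5 cannot be told apart. Each library is a pool of hearts that also hold blood, endothelial, epicardial and mesenchymal cells, in which Mrps5 is intact. Values are FPKM, fragments scaled by transcript length and library size, summed over the transcripts of a gene. In such bulk samples, fewer cells of a type and less RNA per cell cannot be told apart.

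All 8 cardiomyocyte markers were above an FPKM of 1 in every library. Summed cardiomyocyte markers ranged from 8148 to 9671 FPKM in Ctrl and from 6486 to 8180 in cKO libraries, so the groups overlap. All 8 had a lower fitted level in cKO hearts, with 0 at an adjusted p under 0.05 from limma, 4 at an unadjusted p under 0.05, and 5 with lower cKO values without overlap, where 15.0% and 13.0% of all genes tested were so. The 10 erythroid markers found of 12 took 12.0% to 13.3% of the summed FPKM in Ctrl libraries, against 23.5%, 10.8% and 21.9% in cKO replicates 1, 2 and 3. Erythroid level was held as a covariate in 1 alternative fit, and in another the libraries were rescaled without erythroid and mitochondrial DNA genes. The part of the cardiomyocyte marker levels in the values below was not tested. Mrps5 itself was at 9.65, 11.4 and 10.4 FPKM in Ctrl replicates 1, 2 and 3 and at 5.28, 7.41 and 10.4 in cKO replicates 1, 2 and 3. The library labelled cKO replicate 3 therefore held as much Mrps5 mRNA as the controls, and the groups overlap for the targeted gene (log2 fold change -0.44, adjusted p = 0.338 from limma with Benjamini-Hochberg adjustment). It was -0.66 without cKO replicate 3 and -0.23 without cKO replicate 1. By Mrps5 mRNA alone, the genotype of cKO replicate 3 is in doubt, and other measures of this library were mixed. Tnnt2 was at 617, 667 and 683 FPKM in cKO replicates 1, 2 and 3 and at 948 or more in every Ctrl library. Mitochondrial DNA genes took 10.7%, 14.01% and 9.002% of the summed FPKM, erythroid genes included, in the cKO libraries against 14.3% to 15.8% in Ctrl. In cKO replicate 3, Myh7, Myl7 and Myl4 also lay below every Ctrl library. Tnni1 did so narrowly, at 468 FPKM against 471 or more, while cKO replicates 1 and 2 were at 289 and 305. Myh6 of cKO replicate 3 (797 FPKM) exceeded every Ctrl value (at most 763). Its Actc1 and Nkx2-5 lay within the Ctrl range, as in cKO replicate 2. Among cKO libraries, only the marker sum of replicate 3 (8180 FPKM) reached the Ctrl range. Here cKO names the label, and the cKO means and fold changes below include this library unless stated otherwise. The gene sum cannot tell mRNA that lacks the floxed exons from intact mRNA.

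None of the translation factors passed the test. From limma on log2(FPKM + 1), 0 of 10 had an adjusted p under 0.05, where 11 genes (0.0830% of those tested) did, and 0 of 10 had an unadjusted p under 0.05, where 15.0% of all genes did. The smallest adjusted p among them was 0.392. Of the 10, 4 had a higher and 6 a lower fitted level in cKO hearts. Their log2 fold changes had a median of -0.039, against -0.021 over all genes tested, and their median size regardless of sign was 0.071, against 0.12. In 1 of the 10, Mtrf1l, the cKO and Ctrl values did not overlap, as in 20.8% of all genes tested (13.0% with lower and 7.74% with higher cKO values).

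The fit bounded most of these differences. Leaving aside Mtif3, whose interval was the widest, the 95% intervals of the other 9 lay between -0.38 and 0.35 on the log2(FPKM + 1) scale. The 10 genes together summed to 139, 133 and 144 FPKM in Ctrl replicates 1, 2 and 3 and to 130, 141 and 141 in cKO replicates 1, 2 and 3. The mean sum was 139 ± 5.54 (SD, n = 3) in Ctrl and 137 ± 6.31 (SD, n = 3) in cKO hearts, a difference smaller than the spread within either group. On the log2 scale, cKO replicate 1 had the lowest mean of the 6 libraries over the 10 genes, at 3.43, and Ctrl replicate 1 the highest, at 3.59.

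**Figure D1:**
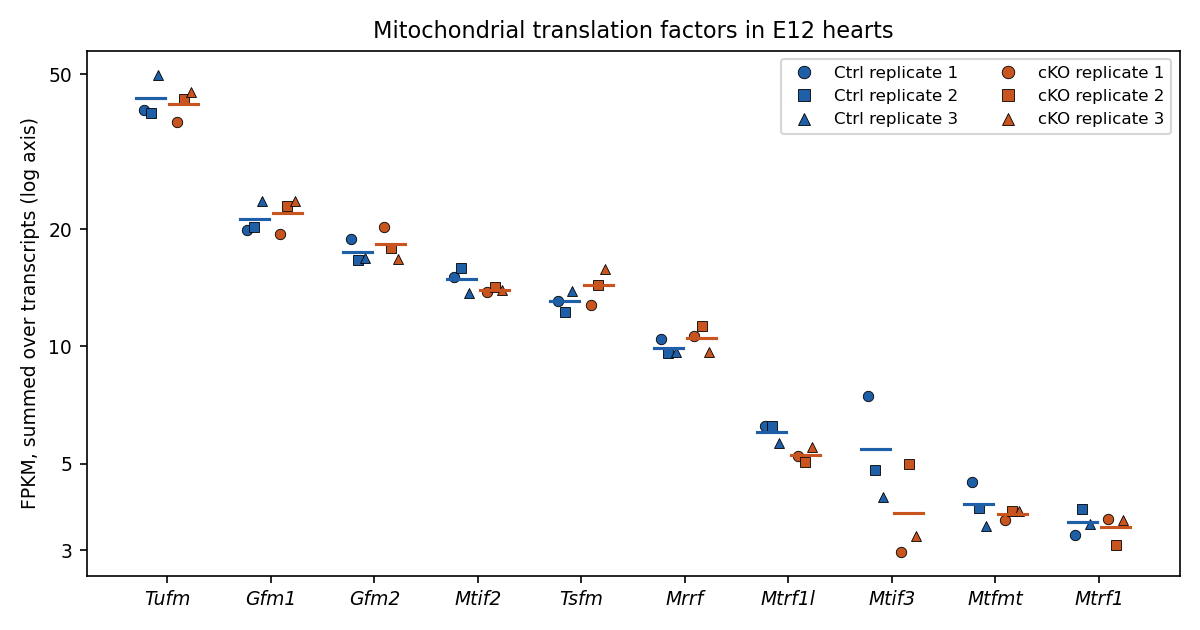
FPKM (log axis) of the 10 mitochondrial translation factors in 3 Ctrl (blue) and 3 cKO (orange) libraries, with a marker shape for each replicate and a bar at each group mean. Genes are ordered by their Ctrl mean, from Tufm at 43.4 to Mtrf1 at 3.54 FPKM, and the groups interleave for every gene except Mtrf1l.

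The order of the levels was led by the elongation factor genes Tufm and Gfm1. Tufm, at a Ctrl mean of 43.4 FPKM, lay above Gfm1 (21.3), Gfm2 (17.5), Mtif2 (14.9), Tsfm (13.1) and Mrrf (9.91), followed by Mtrf1l (6.04), Mtif3 (5.46), Mtfmt (3.94) and Mtrf1 (3.54). FPKM is a level per transcript length, so these genes may be compared with each other. In GENCODE M21 (GRCm38) 4 of the genes described in most detail lie at chr7:126487361-126490731 on the plus strand (Tufm), chr13:97137937-97181195 on the plus strand (Gfm2), chr5:146951573-146963800 on the minus strand (Mtif3) and chr10:5811887-5823910 on the minus strand (Mtrf1l). Within the Ctrl libraries the values of Mtif2 and Tsfm overlapped, as did those of Mtrf1l and Mtif3, of Mtif3 and Mtfmt, and of Mtfmt and Mtrf1. In the cKO libraries Gfm1 and Gfm2 also overlapped, while Mtrf1l and Mtif3 did not. With transcripts weighted by their length, a setting chosen after the data were seen, these differences between the groups were gone. Mtrf1l (at least 5.65 FPKM) and Mtif3 (at most 4.90) were then separate in Ctrl too. Gfm1 (at least 19.48) then lay just above Gfm2 (at most 19.44) in cKO, and Mtif3 (at least 4.53) above Mtfmt (at most 4.49) in Ctrl. Tufm alone made up 31.1% ± 2.97 (SD, n = 3) of the summed level of the 10 genes in Ctrl and 30.5% ± 1.499 (SD, n = 3) in cKO hearts.

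Of the initiation factors, Mtif2 encodes the GTPase that places the initiator tRNA on the ribosome. It was at 15.1, 15.9 and 13.7 FPKM in Ctrl replicates 1, 2 and 3 and at 13.8, 14.2 and 13.9 in cKO replicates 1, 2 and 3. The cKO values lay inside the range of the controls, and the fitted log2 difference was -0.084 (95% interval -0.28 to 0.11, adjusted p = 0.687 from limma). It was -0.038 without Ctrl replicate 2 and -0.14 without Ctrl replicate 3. With transcripts weighted by their length, a setting chosen after the data were seen, it was -0.13 (adjusted p = 0.504), and every cKO value (at most 13.9) lay below every Ctrl value (at least 14.03). Mtif2-202, the transcript that made up 86.4% to 94.7% of the gene in each library, was taken alone at 13.8 ± 0.975 FPKM (SD, n = 3) in Ctrl and 12.3 ± 0.0838 (SD, n = 3) in cKO hearts. For that transcript the groups did not overlap, and the test gave a log2 fold change of -0.15 (adjusted p = 0.481 from limma on the most abundant transcript of each gene).

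Mtfmt, whose product formylates the initiator methionyl-tRNA, was at 4.49, 3.85 and 3.47 FPKM in Ctrl replicates 1, 2 and 3. In cKO replicates 1, 2 and 3 it was at 3.60, 3.79 and 3.77, again inside the range of the controls. Its log2 fold change was -0.060 (95% interval -0.31 to 0.19, adjusted p = 0.837 from limma).

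Mtif3 encodes the factor that keeps the small subunit free for initiation, and it had both the largest fitted difference and the largest spread of the 10. Its summed FPKM was 7.47, 4.81 and 4.11 in Ctrl replicates 1, 2 and 3 and 2.97, 5.00 and 3.27 in cKO replicates 1, 2 and 3. Ctrl replicate 1 stood above all other libraries, while cKO replicate 2 lay above 2 of the 3 controls. The log2 fold change was -0.43 (95% interval -0.93 to 0.065, adjusted p = 0.392 from limma).

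The size of this difference depended on how the transcripts of Mtif3 were added up. The table splits the gene over 6 transcripts from 364 to 4927 bases long. Mtif3-204 and Mtif3-202 hold the same coding sequence of 276 codons and differ in their untranslated ends, the last exon being 449 bases long in the first and 4243 in the second. Mtif3-204 was at 4.87, 3.14 and 0.974 FPKM in Ctrl replicates 1, 2 and 3 and at 1.32, 1.19 and 0.974 in cKO replicates 1, 2 and 3. Mtif3-206, the shortest at 364 bases, is listed at 1.81, 0 and 1.23 FPKM in the controls and at 0 in every cKO library. Others were about level or higher in cKO hearts. Mtif3-202 was at a mean of 1.28 FPKM in Ctrl and 1.20 in cKO hearts, a transcript of 2131 bases at 0.173 and 0.805, and Mtif3-203 is listed above 0 in cKO replicate 2 alone, at 1.67.

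A fragment counts for more FPKM on a short transcript than on a long one, so the sum moves with the transcript to which fragments are assigned. When each transcript was weighted by its length, as for Mtif2 above, Mtif3 was at 4.53, 4.89 and 4.90 FPKM in Ctrl replicates 1, 2 and 3 and at 4.11, 4.31 and 4.88 in cKO replicates 1, 2 and 3. The spread within each group narrowed and the fitted difference became -0.090 on the log2 scale (adjusted p = 0.708 from limma). For Mtif3-204 alone, the most abundant transcript, it was -0.75 (adjusted p = 0.468). With erythroid level as a covariate it was -0.16 (adjusted p = 0.822). Leaving out Ctrl replicate 1 moved the summed value to -0.22, and leaving out cKO replicate 2 to -0.62 (adjusted p = 0.240). Mtif3 also shares exonic bases with Gtf3a on the opposite strand, and whether strand was used in quantification is not given in the sources used here.

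Among the elongation factors, Tufm carries each aminoacyl-tRNA to the ribosome. Its summed FPKM was 40.5, 39.8 and 49.9 in Ctrl replicates 1, 2 and 3 and 37.6, 43.2 and 44.9 in cKO replicates 1, 2 and 3. The groups overlap throughout, with a log2 fold change of -0.045 (95% interval -0.31 to 0.22, adjusted p = 0.888 from limma). Its sign turned when Ctrl replicate 3 (0.057) or cKO replicate 1 (0.030) was left out and with erythroid level as a covariate (0.0060).

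Although the sum of Tufm was steady, the transcript credited with it was not. The table gives nearly all of it to Tufm-201 or Tufm-202, which differ by a stretch of 88 bases besides a few at their ends. In the GENCODE M21 annotation (GRCm38) this stretch, chr7:126489704-126489791 on the plus strand, is an intron of Tufm-201 and lies inside exon 8 of Tufm-202. The bases around it are shown because they are what separates these transcripts, with the intron in capitals and 20 bases of each neighbouring exon in lower case.
Tufm-202: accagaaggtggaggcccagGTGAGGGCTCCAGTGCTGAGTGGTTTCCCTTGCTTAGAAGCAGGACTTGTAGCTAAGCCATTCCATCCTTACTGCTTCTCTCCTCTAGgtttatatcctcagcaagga
Tufm-201: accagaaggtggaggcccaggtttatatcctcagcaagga

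The retained stretch begins with GT and ends with AG, the usual ends of an intron. Its 88 bases leave a remainder of 1 when divided by 3, and the annotated coding sequence is 435 codons in Tufm-202 against 452 in Tufm-201. Tufm-202 took 70.7%, 6.35% and 4.25% of the summed Tufm FPKM in Ctrl replicates 1, 2 and 3. In cKO replicates 1, 2 and 3 it took 74.0%, 4.39% and 75.7%. The libraries thus fell on either side without following their labels, 1 Ctrl and 2 cKO libraries with mostly Tufm-202 and 2 Ctrl and 1 cKO library with mostly Tufm-201. Both cKO libraries with mostly Tufm-202 had the raised erythroid share, while Ctrl replicate 1 did not, at 12.2%. The part of the erythroid share in this split was not tested. For Tufm-201 alone the fitted difference was -0.74 with a standard error of 0.73 (adjusted p = 0.702 from limma), so the single transcript was measured far less precisely than the gene. GENCODE M21 also holds a processed pseudogene of Tufm, Gm9755, which has no entry under that symbol in the table, and how fragments shared with it were treated is not given in the sources used here.

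**Figure D2:**
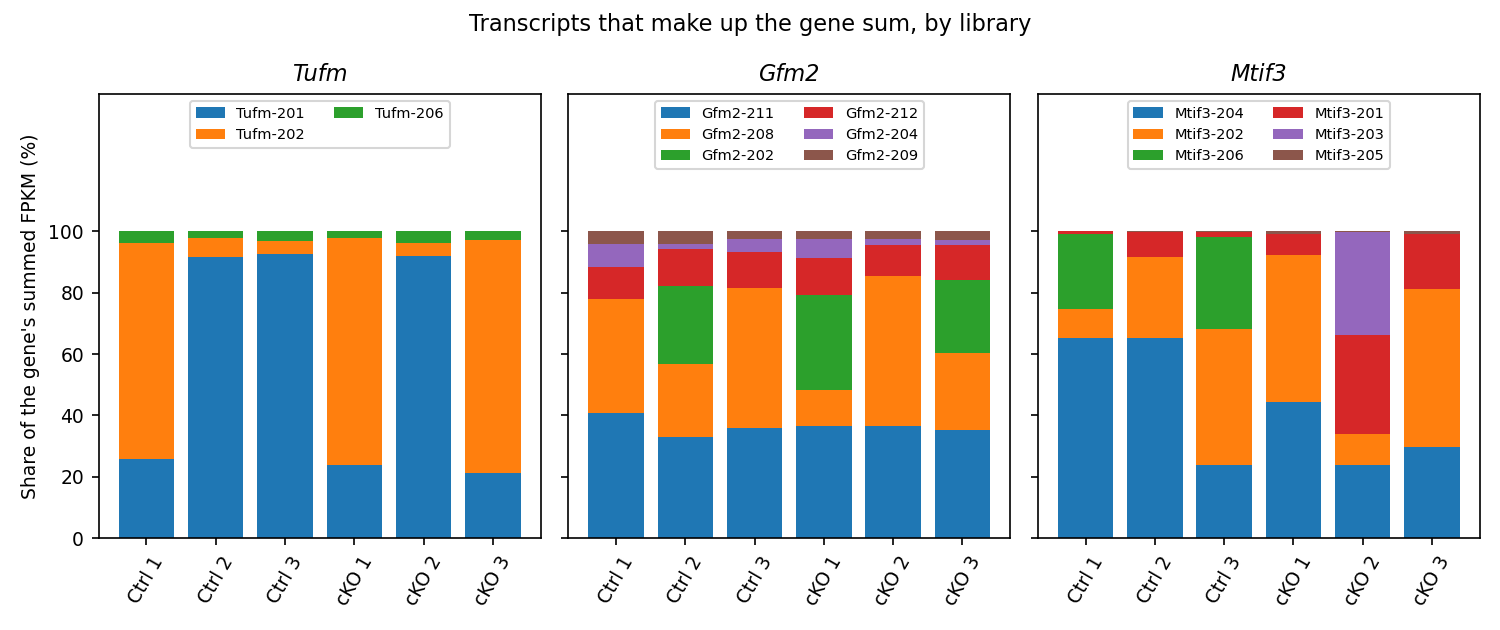
Share of each gene's summed FPKM (percent) credited to each transcript with a value above 0, in 3 Ctrl and 3 cKO libraries, for Tufm, Gfm2 and Mtif3. Tufm-202, the form with the retained intron, takes 70.7% to 75.7% in Ctrl replicate 1 and cKO replicates 1 and 3 and 4.25% to 6.35% in the other libraries.

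Tsfm, which encodes the factor that reloads EF-Tu with GTP, had a value that rested on single cKO libraries. It was at 13.1, 12.3 and 13.9 FPKM in Ctrl replicates 1, 2 and 3 and at 12.8, 14.4 and 15.8 in cKO replicates 1, 2 and 3. Of the cKO libraries, replicates 2 and 3 lay above every control and replicate 1 within their range. The log2 fold change was 0.12 (95% interval -0.11 to 0.35, adjusted p = 0.614 from limma). It was 0.051 without the library labelled cKO replicate 3 and 0.19 without cKO replicate 1. Tsfm-201 supplied 77.0% to 86.8% of the gene and Tsfm-202 the rest.

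As EF-Tu and EF-Ts work as partners, their ratio was formed within each library, which removes any difference in scaling. Tufm exceeded Tsfm by a factor of 3.09, 3.24 and 3.59 in Ctrl replicates 1, 2 and 3 and of 2.94, 3.00 and 2.84 in cKO replicates 1, 2 and 3. Every ratio in the libraries labelled cKO was below every Ctrl ratio, and that of cKO replicate 3, where Mrps5 was as high as in the controls, was the lowest. The mean log2 difference was -0.17. The exact two-sided permutation test gave p = 0.1, the smallest that 3 against 3 libraries allow, and 0.267 after adjustment over the 8 ratios formed, which were chosen after the data were seen.

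Gfm1, the gene of the translocase that moves the ribosome along the mRNA, was at 19.9, 20.3 and 23.6 FPKM in Ctrl replicates 1, 2 and 3 and at 19.5, 22.9 and 23.6 in cKO replicates 1, 2 and 3. The ranges nearly coincide. Its log2 fold change was 0.045 (95% interval -0.20 to 0.29, adjusted p = 0.875 from limma). It turned to -0.0063 without cKO replicate 3.

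Among the genes for termination and recycling was the only one of the 10 whose groups were separated in the plain sums. Mtrf1l encodes the release factor that reads the standard mitochondrial stop codons, and the table holds 1 transcript for it. It was at 6.24, 6.24 and 5.65 FPKM in Ctrl replicates 1, 2 and 3 and at 5.23, 5.06 and 5.51 in cKO replicates 1, 2 and 3. All 3 libraries labelled cKO were below all 3 Ctrl libraries, though cKO replicate 3 and Ctrl replicate 3 were close. The mean was 6.04 ± 0.339 (SD, n = 3) against 5.27 ± 0.228 (SD, n = 3), which is 87.1% of the control level. The log2 fold change was -0.17 (95% interval -0.38 to 0.043, adjusted p = 0.429 from limma), and the exact two-sided permutation test on FPKM gave p = 0.1, the smallest possible with 3 against 3. Without the library labelled cKO replicate 3 the value was -0.20 (adjusted p = 0.431 from limma).

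Its paralogue Mtrf1 was at 3.28, 3.82 and 3.51 FPKM in Ctrl replicates 1, 2 and 3 and at 3.62, 3.10 and 3.59 in cKO replicates 1, 2 and 3. No separation was seen, and the log2 fold change of -0.033 (adjusted p = 0.915 from limma) turned its sign with quantile normalization (0.035) and without Ctrl replicate 2 (0.011) or cKO replicate 2 (0.023). Mtrf1l exceeded Mtrf1 in every library, by a factor of 1.71 ± 0.161 (SD, n = 3) in Ctrl and 1.54 ± 0.0914 (SD, n = 3) in cKO hearts, and these ratios overlapped (exact permutation p = 0.2, adjusted p = 0.267).

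Mrrf, encoding the recycling factor, was at 10.4, 9.61 and 9.69 FPKM in Ctrl replicates 1, 2 and 3 and at 10.6, 11.3 and 9.69 in cKO replicates 1, 2 and 3. In cKO replicates 1 and 2 it lay above every control, and in cKO replicate 3 within their range. The log2 fold change was 0.079 (95% interval -0.13 to 0.29, adjusted p = 0.731 from limma). It was 0.031 without cKO replicate 2, 0.13 without cKO replicate 3 and 0.14 with erythroid level as a covariate. Its partner in splitting the ribosome, Gfm2, was at 18.8, 16.7 and 16.8 FPKM in Ctrl replicates 1, 2 and 3 and at 20.3, 17.9 and 16.8 in cKO replicates 1, 2 and 3. Gfm2 gave a log2 fold change of 0.063 (adjusted p = 0.803 from limma), which was -0.0088 without cKO replicate 1.

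Gfm2 was another gene whose transcripts traded places between libraries. Gfm2-208 holds a coding exon of 81 bases that Gfm2-202 skips, at chr13:97160087-97160167 on the plus strand (exon 11 of Gfm2-208 in GENCODE M21, GRCm38). The exon is a multiple of 3, so the coding sequence shortens from 779 to 752 codons with the frame kept. It is shown in capitals between 20 bases of the exons on each side.
Gfm2-208: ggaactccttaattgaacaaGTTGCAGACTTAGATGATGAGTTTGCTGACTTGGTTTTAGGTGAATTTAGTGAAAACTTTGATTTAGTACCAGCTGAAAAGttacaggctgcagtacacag
Gfm2-202: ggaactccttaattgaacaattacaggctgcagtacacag

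The form that skips the exon is listed at 0, 4.26 and 0 FPKM in Ctrl replicates 1, 2 and 3 and at 6.28, 0 and 4.01 in cKO replicates 1, 2 and 3. Gfm2-208 was at 7.001, 3.96 and 7.65 FPKM in the Ctrl replicates and at 2.38, 8.75 and 4.21 in the cKO replicates, in the same order. Libraries without Gfm2-202 were those with the most Gfm2-208, in both genotypes. These are estimates of overlapping forms, and a listed 0 can be a failed estimate. The transcript with the highest mean, Gfm2-211, varied less, from 33.1% to 40.8% of the gene. Gfm2 shares exonic bases with Nsa2 on the opposite strand, and Gfm1, Tsfm and Mrrf do so with Lxn, Avil and Rbm18.

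**Figure D3:**
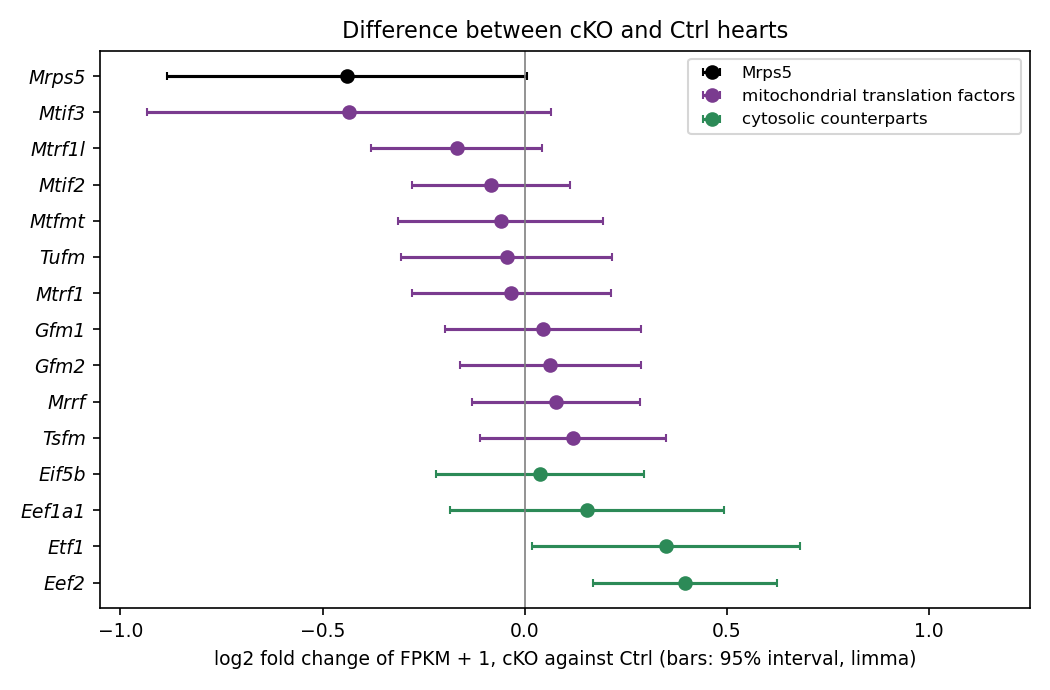
Log2 fold change of FPKM + 1 in cKO against Ctrl hearts with its 95% interval from limma, for Mrps5 (black), the 10 mitochondrial translation factors (purple) and 4 cytosolic counterparts (green). The interval of every mitochondrial factor spans 0, and those of Eef2 (0.17 to 0.62) and Etf1 (0.02 to 0.68) do not. These intervals are not adjusted for the number of genes. Neither Eef2 (adjusted p = 0.161 from limma) nor Etf1 (0.313) passed, and 15.0% of all genes tested had an unadjusted p under 0.05.

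The cytosolic counterparts of 4 of the factors were set beside them. Eef2, the cytosolic translocase, was at 445, 480 and 507 FPKM in Ctrl replicates 1, 2 and 3 and at 634, 630 and 619 in cKO replicates 1, 2 and 3. Its groups did not overlap, and the log2 fold change was 0.40 with an unadjusted p of 0.00372, but an adjusted p of 0.161 from limma. The ratio of Gfm1 to Eef2 was 0.0445 ± 0.00215 (SD, n = 3) in Ctrl and 0.0351 ± 0.00389 (SD, n = 3) in cKO libraries, lower in every library labelled cKO (-0.35 on the log2 scale, exact permutation p = 0.1, adjusted p = 0.267).

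Etf1, the cytosolic release factor, was at 48.9, 67.7 and 55.6 FPKM in Ctrl replicates 1, 2 and 3 and at 63.2, 84.7 and 72.0 in cKO replicates 1, 2 and 3. Those values overlap (log2 fold change 0.35, adjusted p = 0.313 from limma). The ratio of Mtrf1l to Etf1 was likewise lower in every library labelled cKO, by -0.55 on the log2 scale (exact permutation p = 0.1, adjusted p = 0.267). For Tufm to Eef1a1 (-0.20) and Mtif2 to Eif5b (-0.13) the log2 ratios overlapped between the groups (exact permutation p = 0.2 for each). The remaining ratios also overlapped, Gfm1 to Gfm2 with a log2 difference of -0.020 (exact permutation p = 1) and Mtif2 to Mtif3 with 0.44, the only one of the 8 above 0 (exact permutation p = 0.3). From length-weighted sums, chosen after the data were seen, this last difference was -0.026. With 8 ratios and 3 against 3 libraries no ratio could pass an adjusted p of 0.05.

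Of the 16 cytosolic factors listed, 0 had an adjusted p under 0.05 from limma and 6 an unadjusted p under 0.05, namely 4 higher and 2 lower. Over all genes tested, 0.0830% and 15.0% did, the latter with 739 higher and 1251 lower. The median over the list was 0.13. The subunit gene Eif2s2 of the initiator tRNA carrier eIF2 was at 65.8, 76.6 and 69.8 FPKM in Ctrl and at 102, 114 and 79.3 in cKO replicates 1, 2 and 3 (log2 fold change 0.46, adjusted p = 0.2004). The other eIF2 subunit genes Eif2s1 and Eif2s3x overlapped between the groups. Eef1a2, the elongation factor gene typical of mature muscle, was lower in every cKO library, at 10.2, 10.6 and 17.1 FPKM against 22.8, 17.9 and 30.6 in Ctrl (log2 fold change -0.87, adjusted p = 0.168). Eif5, a GTPase activator of initiation, had a log2 fold change of -0.28 (adjusted p = 0.207). When the library labelled cKO replicate 3 was left out, Eef1a2 (-1.09, adjusted p = 0.0333 from limma) and Eif2s2 (0.61, adjusted p = 0.0333) passed the threshold, as did 270 genes in all. None of the 10 mitochondrial factors was among these, and no difference between the mitochondrial and cytosolic factors was tested.

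Around the translation factors stand the genes that build, charge and guard the mitochondrial ribosome, and 0 of them passed an adjusted p of 0.05 in any list. Among 7 genes of rescue and related factors, 2 had a higher and 5 a lower fitted level, with a median of -0.12 and 0 at an unadjusted p under 0.05 by limma. The rescue factor gene 2810006K23Rik (Mtrfr) did not overlap between groups, at 9.43, 8.86 and 10.8 FPKM in Ctrl and at 8.11, 8.60 and 8.53 in cKO replicates 1, 2 and 3 (adjusted p = 0.421). Mterf4, which recruits an rRNA methyltransferase to the ribosome, was at 9.52 ± 1.26 (SD, n = 3) in Ctrl and 7.96 ± 0.566 (SD, n = 3) in cKO hearts, and its values overlapped (log2 fold change -0.23, adjusted p = 0.384). In the lists for the processing of new chains (4 genes), for glutamyl-tRNA amidation (3 genes) and for ribosome assembly and rRNA modification (20 genes), 0 genes had an unadjusted p under 0.05, with medians of 0.055, -0.11 and 0.032. The deformylase gene Pdf, which acts on the group that MTFMT adds, had the widest interval of its list (-0.52 to 0.23), and the membrane insertase gene Oxa1l gave 0.042 (adjusted p = 0.879). In the assembly list 5 of 20 genes did not overlap, 2 higher and 3 lower (Mtg2, Malsu1 and Rpusd4, named after their values were seen), against 20.8% of all genes tested. Mpv17l2, an assembly factor gene and 1 of the 2, was at 2.80 ± 0.192 FPKM (SD, n = 3) in Ctrl and 3.31 ± 0.147 (SD, n = 3) in cKO hearts without overlap (log2 fold change 0.18, adjusted p = 0.442).

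Of 11 mRNA stability genes and translational activators, 1 had an unadjusted p under 0.05, where 15.0% of all genes tested did. This was Lrpprc, whose product protects mitochondrial mRNAs, at 28.4, 32.5 and 28.9 FPKM in Ctrl and at 34.7, 39.4 and 36.7 in cKO replicates 1, 2 and 3. Every library labelled cKO was above every Ctrl library (log2 fold change 0.29, adjusted p = 0.207 from limma). The median of its list was -0.0098. Of 16 tRNA maturation genes (median 0.054), 2 had an unadjusted p under 0.05, also no more than that share, and both were higher in each cKO library. Yrdc, which makes the threonylcarbamoyl group of tRNAs, was at 6.75 ± 0.149 FPKM (SD, n = 3) in Ctrl and 9.17 ± 0.859 (SD, n = 3) in cKO hearts (log2 fold change 0.39, adjusted p = 0.154), and Nsun3, a methyltransferase gene for mitochondrial tRNA, gave 0.32 (adjusted p = 0.285).

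The 78 mitoribosomal protein genes, Mrps5 included, gave 7 at an unadjusted p under 0.05, 3 higher and 4 lower, a share below the 15.0% of all genes tested, with a median of -0.016 and 0 at an adjusted p under 0.05. Mrps18b, at 18.1 ± 0.139 FPKM (SD, n = 3) in Ctrl and 24.9 ± 3.23 (SD, n = 3) in cKO hearts, had the smallest p of the list (log2 fold change 0.43, adjusted p = 0.153 from limma) and passed without cKO replicate 3 (0.53, adjusted p = 0.0305). Mrpl42 (-0.32, adjusted p = 0.166) and Mrpl48 (-0.32, adjusted p = 0.180) were lower in every cKO library, and Mrpl38 (0.25, adjusted p = 0.242) was higher. For its most abundant transcript alone, Mrpl48 gave 0.0066.

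**Figure D4:**
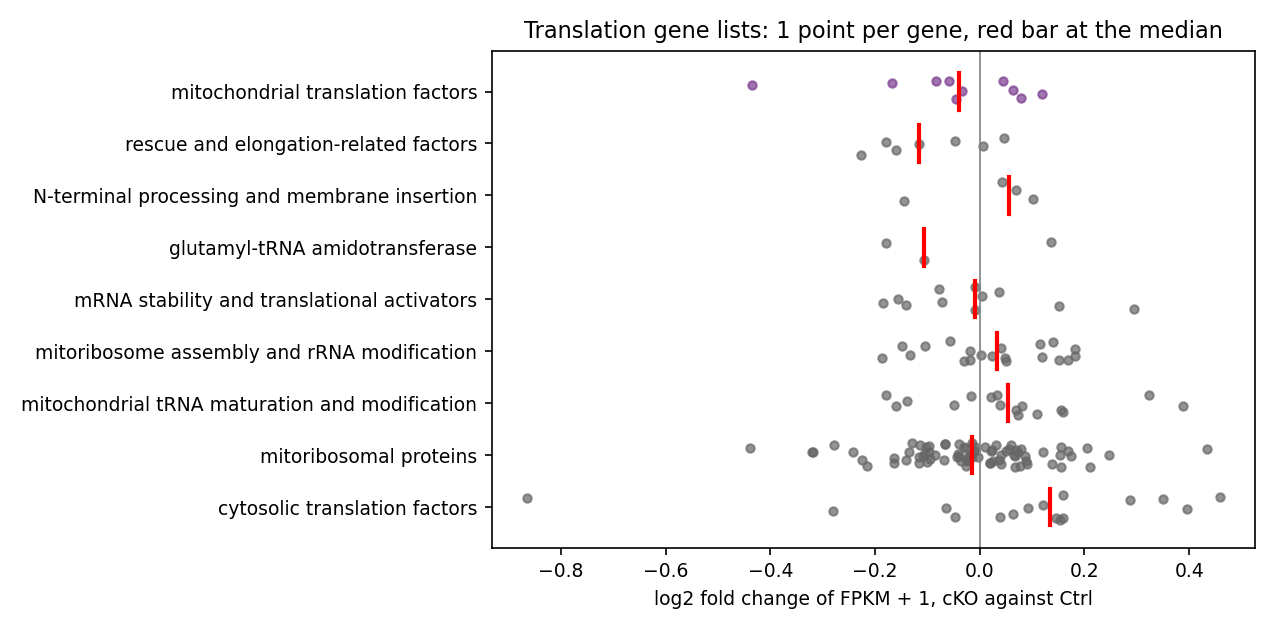
Log2 fold change of FPKM + 1 in cKO against Ctrl hearts for every tested gene of 9 translation lists, 1 point per gene, with a red bar at each list's median. The mitochondrial lists centre between -0.12 and 0.055, and the median of the 16 cytosolic factors lies at 0.13, with Eef1a2 apart at -0.87.

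The genes whose levels followed the most abundant factors closest over the 6 libraries were found by the root mean square distance of their centred log2 values. For Tufm these were Acadl (0.0279), Dolk (0.0314) and Hspb1 (0.0330), where the values of Tufm varied around their own mean by 0.130. For Gfm1 they were Tmem51, B4gat1 and Timm29, at 0.0219 to 0.0246 against an own variation of 0.113. For Gfm2 they were Ubr2, Mms19 and Morn2, at 0.0169 to 0.0270 against 0.0985. With 6 libraries and 13260 genes, close matches of this kind are a description of these libraries.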

How the data were processed

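RNA of E12 hearts was depleted of ribosomal RNA and made into strand-specific libraries. The authors deposited FPKM for each transcript and library. The submitters' processing notes name mm9, Bowtie2 2.2.8, HISAT2, StringTie 1.3.1 and Cuffdiff 2.1.1, with no role. The annotation release is not given in the sources used here. FPKM do not give read counts. The most frequent ratio of low values put relative depth at 1 to 1.61 over the 6 libraries, a rough estimate, since 22 to 41 of 327 to 389 such genes shared that ratio. Version suffixes were dropped from identifiers and transcripts summed per gene. Genes reaching an FPKM of 1 in 3 or more of the 6 libraries were kept. Their log2(FPKM + 1) values were compared in R 4.3.3 by moderated linear models (limma 3.58.1, trended variance), adjusted by the Benjamini-Hochberg method over 13260 genes, after tests on simulated data. Transcript names, lengths, sequences and coordinates are from GENCODE M21 (GRCm38), where all 31 transcripts of the 10 genes were found. The members and lists were chosen with earlier results of these data known. Named besides the 10 genes were Mrps5, the cytosolic counterparts, genes of each list by smallest p, at most 4, and the 3 nearest genes of the 3 most abundant factors. Other genes, such as Eif2s1 and Eif2s3x, were named after their values were seen. Labels call the samples biological replicates.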

Additional observations from a re-analysis of the deposited data

How the results depend on the processing

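No mitochondrial translation factor reached an adjusted p under 0.05 in the 16 other settings tried, of which the length-weighted sum was chosen after seeing the data. A mean FPKM of at least 5 leaves out Mtif3, Mtrf1 and Mtfmt. At an unadjusted p under 0.05 the number was 0 to 1 when single libraries were left out, the 1 being Mtif3 (without Ctrl replicate 3 or cKO replicate 2). In the accompanying lists the number at an adjusted p under 0.05 was 0 to 3, with 3 only without cKO replicate 3. Over all genes it was 11, and 5 to 270 when single libraries were left out (121 without cKO replicate 2 and 270 without cKO replicate 3), 6 with no filter on low values, and 4 on the most abundant transcripts.

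A replicate block in the fit gave 4 genes in all and changed no call of the 10 factors or Mrps5. Same-numbered libraries deviated from their group means with correlations of 0.217, 0.110 and 0.0901, not all above 0.1, so the numbers were not taken as pairs, although each library correlated best with its own number.

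Signs of values near 0 turned when single libraries were left out, in ranges of -0.10 to 0.057 for Tufm, -0.0063 to 0.13 for Gfm1, -0.0088 to 0.12 for Gfm2, -0.074 to 0.023 for Mtrf1, -0.13 to 0.019 for Mtfmt, -0.27 to 0.013 for Pdf, -0.022 to 0.11 for Oxa1l and -0.038 to 0.12 for Eif5b. With erythroid level as a covariate the log2 fold change was 0.0060 for Tufm, 0.0054 for Mrpl58 and 0.066 for Pdf, with quantile normalization 0.035 for Mtrf1, and on the most abundant transcript 0.0066 for Mrpl48. The cause was not tested. With 3 libraries a group, differences as large as the bounds of each interval remain compatible with the data.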
